A study of Mus musculus with 12 samples.

Results

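The regions described here are 207 intronic peaks of SLM2 eCLIP from wild-type whole brain that lie far from any exon and lack the UWAA tetramer of SLM2. They are peaks whose centre lies in an intron and more than 1000 nt from every exon on the same strand, with at most 50% repeat-masked bases within 50 nt of the centre and no UWAA (UUAA or UAAA) starting within those 50 nt to either side on the transcribed strand. Of 2057 whole-brain peaks, 1948 had their centre in an intron, 1741 of these were over 1000 nt from exons, and 1459 of those were largely free of repeats. The 207 peaks without UWAA were 14.2% of the 1459 (exact 95% interval 12.4 to 16.1), and the other 1252 held at least 1 UWAA start and serve for comparison. The rule used sequence and position only, not the enrichment of a peak.

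The series held 12 libraries from mice aged 30 days, with tissue exposed 3 times to UV light at 400 mJ/cm2. Wild-type (WT) whole brain and WT hippocampus each had 2 eCLIP libraries and 2 size-matched inputs, and Slm2 KO hippocampus, from mice without SLM2, had as many libraries of each kind, which were not analysed here. Each whole-brain lysate came from a single brain and each hippocampal lysate from pooled hippocampi. The replicates of a tissue were merged by the authors into 1 peak list, so every value below is a pooled value without a spread over replicates, and the read depth behind a peak is not held in the list. For each peak the authors computed the log2 fold change of eCLIP over input, the −log10 p of that enrichment and the −log10 IDR, a measure of how reproducibly replicates rank a peak, and kept peaks of at least 2 in both log2 fold change and −log10 IDR. Peaks of 1 gene share that gene's RNA and are not independent, so genes rather than peaks were counted in the sign tests. Fisher's exact tests of hippocampal overlap, adaptor matches and neighbouring peaks counted peaks instead.

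SLM2, encoded by Khdrbs3, is a nuclear RNA-binding protein of the STAR family that regulates alternative splicing in neurons. Its KH domain recognises short AU-rich elements, and it binds RNA as a dimer, so that bound introns often carry several copies of the element. In eCLIP, UV light fixes proteins to the RNA they touch, the protein is immunoprecipitated from size-selected complexes, and the fragments are sequenced beside input RNA from the same gel range. A peak thus marks RNA recovered above input and not, by itself, a sequence the protein reads directly.

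The peaks without UWAA were rich in runs of G. The windows below run from 50 nt before to 50 nt behind the peak centre, 5′ to 3′ on the transcribed strand (mm10), with each run of at least GGG in capitals. The first 5 are among the peaks of highest log2 fold change that had GGG and no match to the library adaptors, 1 for each gene, followed by the windows with the most GGG in Rbfox3 and Grm4, the genes with the most such peaks.

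Rbfox3, chr11:118848716-118848816, minus strand: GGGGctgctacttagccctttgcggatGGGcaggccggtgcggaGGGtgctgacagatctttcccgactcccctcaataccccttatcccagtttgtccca
Rora, chr9:68933379-68933479, plus strand: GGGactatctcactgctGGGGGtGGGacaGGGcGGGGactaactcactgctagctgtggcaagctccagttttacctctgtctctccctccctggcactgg
Sez6l, chr5:112552489-112552589, minus strand: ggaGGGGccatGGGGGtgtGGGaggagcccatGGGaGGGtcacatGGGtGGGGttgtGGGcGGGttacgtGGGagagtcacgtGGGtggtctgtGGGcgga
Pkp4, chr2:59247050-59247150, plus strand: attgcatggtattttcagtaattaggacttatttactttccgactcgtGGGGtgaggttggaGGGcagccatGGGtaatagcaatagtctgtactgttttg
Gnaq, chr19:16227114-16227214, plus strand: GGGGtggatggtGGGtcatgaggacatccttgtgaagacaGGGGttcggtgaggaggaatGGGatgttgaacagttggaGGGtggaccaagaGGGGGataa
Rbfox3, chr11:118890713-118890813, minus strand: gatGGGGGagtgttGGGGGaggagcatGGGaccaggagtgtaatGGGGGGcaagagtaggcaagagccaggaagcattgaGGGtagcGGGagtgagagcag
Grm4, chr17:27490740-27490840, minus strand: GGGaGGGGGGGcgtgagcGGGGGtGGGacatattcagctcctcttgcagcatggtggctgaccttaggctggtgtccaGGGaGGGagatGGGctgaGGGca

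Rbfox3 encodes NeuN, a neuronal splicing regulator, Rora a nuclear receptor, Sez6l a membrane protein of neurons, Pkp4 a plakophilin of cell junctions, Gnaq a G protein alpha subunit and Grm4 a metabotropic glutamate receptor. In these 7 windows the number of GGG starts ranged from 4 to 16. Their log2 fold change ran from 2.42 in the second Rbfox3 window to 4.27 in the first. An Ahdc1 window that ranks between those of Rora and Sez6l, at 3.98, is not shown and had 2 GGG starts. For contrast, the peak of highest log2 fold change among those with UWAA, at 6.04 and located in Pex5l, the gene of an auxiliary HCN channel subunit, had 6 UWAA starts, shown in capitals, and no GGG:

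Pex5l, chr3:33125090-33125190, minus strand: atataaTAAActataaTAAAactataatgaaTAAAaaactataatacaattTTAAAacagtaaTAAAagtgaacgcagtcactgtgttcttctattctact

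The absence of UWAA was less common at peaks than in the sequence around them. In windows of the same length centred 500 nt to either side of the 1459 peaks, and no more masked than the peaks were allowed to be, UWAA was lacking in 706 of 2441 windows (28.9%), against 207 of 1459 (14.2%) at the peaks. The share without UWAA was higher at the peaks in 37 genes, lower in 144 and equal in 111 (exact two-sided binomial sign test over genes, p = 4.15e-16). The mean of 2 flanks is less often 0 than a single window, which by itself makes a lower value at the peak likelier, so each flank was also compared alone. Against the upstream flank the share was higher at the peaks in 24 genes and lower in 103 (exact sign test, p = 7.46e-13), and against the downstream flank higher in 27 and lower in 102 (exact sign test, p = 1.88e-11). A window free of UWAA is therefore no rare sequence in these introns, and the 207 peaks make up a smaller share of all peaks than such windows make up of the flanks.

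The 207 peaks lay in 89 of the 297 genes with deep intronic unmasked peaks, and 205 of them lay in protein-coding genes. Rbfox3 on chromosome 11 alone held 61 (29.5%, exact 95% interval 23.4 to 36.2) and Grm4 on chromosome 17 held 16, so that 77 of 207 (37.2%) came from these genes. Csmd1, which encodes a large membrane protein that regulates complement, Rora and Tspan5, which encodes a tetraspanin, held 5 each. Nrg3, a neuregulin, Ctnnd2, the neuronal delta-catenin, and Ppp2r2c, a regulatory subunit of protein phosphatase 2A, held 4 each. Syt1, the calcium sensor of synaptic vesicle release, and Adgrb3, an adhesion G protein-coupled receptor, held 3 each. A single such peak was found in 62 of the 89 genes.

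**Figure D1:**
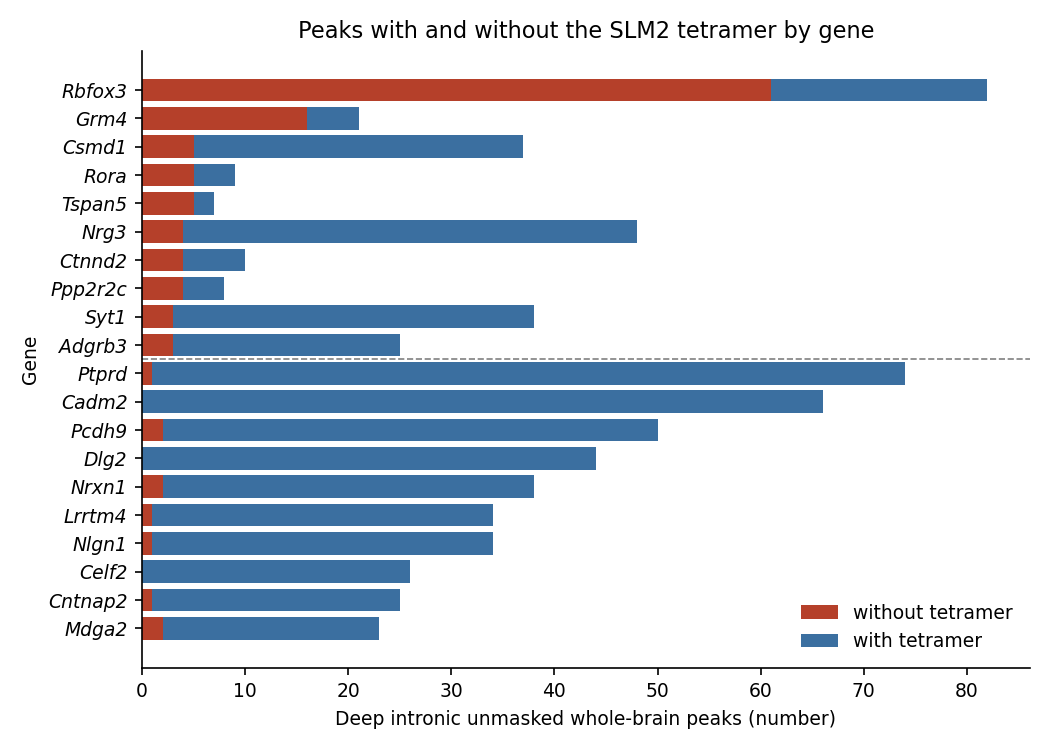
Number of deep intronic unmasked whole-brain peaks per gene, without (red) and with (blue) the SLM2 tetramer, for the 10 genes with the most peaks without it (above the dashed line) and for the other genes with the most peaks (below). Rbfox3 had 61 of 82 peaks without the tetramer and Grm4 16 of 21, while Cadm2 had 0 of 66.

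The share of peaks without UWAA differed widely between genes. Among the 61 genes with at least 5 deep intronic unmasked peaks, the share was highest in Grm4 (16 of 21, 76.2%), Rbfox3 (61 of 82, 74.4%), Tspan5 (5 of 7), Rora (5 of 9) and Ppp2r2c (4 of 8), and in 4 genes the peaks without UWAA outnumbered those with it. No peak lacked UWAA in 32 of these genes. The largest of them were Cadm2, a synaptic cell adhesion molecule, with 66 peaks, Dlg2, the scaffold PSD-93, with 44, Celf2, an RNA-binding protein, with 26, and the adhesion gene Il1rapl1 and the Kv4 channel subunit gene Kcnip4, with 22 each. Ptprd, a receptor phosphatase that organises synapses, had 1 of 74. Of the STAR family genes, Khdrbs2 had 1 deep intronic unmasked peak, which held UWAA, and Khdrbs1 and Khdrbs3 had none.

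In Rbfox3 and Grm4 the surrounding sequence was poor in UWAA as well. In Rbfox3, 98 of 149 flank windows (65.8%, exact 95% interval 57.6 to 73.3) lacked UWAA, against 74.4% of its peaks (63.6 to 83.4). In Grm4, 26 of 36 flank windows (72.2%) lacked it, against 76.2% of its peaks. Outside these genes, 582 of 2256 flank windows (25.8%) and 130 of 1356 peaks (9.59%) lacked UWAA. The intervals of peaks and flanks overlapped in Rbfox3 and in Grm4, whereas over the remaining genes the share at peaks was below that in the flanks.

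By class of gene, such peaks were few in synaptic adhesion genes, at 21 of 516 deep intronic unmasked peaks (4.07%) in 13 genes, led by Nrg3, Igsf21 and Mdga2. Their share was 6 of 111 (5.41%) in postsynaptic scaffolds, which hold receptors at the synapse, with Anks1b and Dlgap4 at 2 each, 4 of 60 (6.67%) in genes of vesicle release, with Syt1 and Rims2, 2 of 68 (2.94%) in potassium and HCN channels, with Dpp6 and Kcnd2, and 1 of 32 in ionotropic glutamate receptors, in Grin2a. Metabotropic glutamate receptors stood at 18 of 45 (40.0%), of which 16 were in Grm4 and the others in Grm3 and Grm5. RNA-binding proteins stood at 63 of 116 (54.3%), of which 61 were in Rbfox3 and 2 in Rbfox1. The 14.2% over all genes was thus exceeded in both of these classes through 1 gene each. Outside Rbfox3 and Grm4 the share over all genes was 9.59%, nearer to that of scaffolds and release genes.

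No peak of this kind was found in genes of GABAergic synapses (5 deep intronic unmasked peaks), calcium and sodium channels (3), axon guidance (12), interneuron markers (4) or housekeeping genes (1). These numbers are too small to tell whether the share in such a class differed from that over all genes. Of the 20 oligodendrocyte genes, Mbp, which encodes myelin basic protein, held 1 of its 3 deep intronic unmasked peaks without UWAA. The astrocyte genes and the genes of microglia and endothelium held no deep intronic unmasked peak. A peak list holds no expression levels, and whether a class had few peaks for want of its RNA was not tested. The median log2 fold change of the peaks without UWAA was 2.38 in adhesion genes, 2.31 in metabotropic receptors, 2.52 in scaffolds, 2.27 in release genes and 2.29 in RNA-binding proteins, beside 2.45 over all 207.

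The Rbfox3 peaks were spread over 7 introns from 4.89 to 384.9 kb behind the gene start, with 18 in an intron of 90.1 kb, within a gene of 421.8 kb. Their log2 fold change ran from 2.00 to 4.27 with a median of 2.31, and the 21 Rbfox3 peaks with UWAA had a median of 2.35 and a range of 2.01 to 2.97. The −log10 p had a median of 4.47 without UWAA and 3.53 with it. Within 500 nt of another whole-brain peak lay 28 of the 61. Both kinds of Rbfox3 peak had a median of 4 GGG starts with quartiles of 2 and 6. The mean was 4.64 starts without UWAA and 3.71 with it. Both kinds were interspersed along the gene and overlapped over most of their range of enrichment.

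The 16 Grm4 peaks lay in 4 introns between 12.4 and 78.5 kb of a gene of 99.0 kb, 9 of them in an intron of 29.3 kb. Their log2 fold change ran from 2.06 to 3.25 with a median of 2.31, against 2.30 for the 5 with UWAA. All 16 held GGG, with a median of 8 starts. Among the 5 Grm4 peaks with UWAA the mean was 6.40 GGG starts, beside 7.38 in those without.

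**Figure D2:**
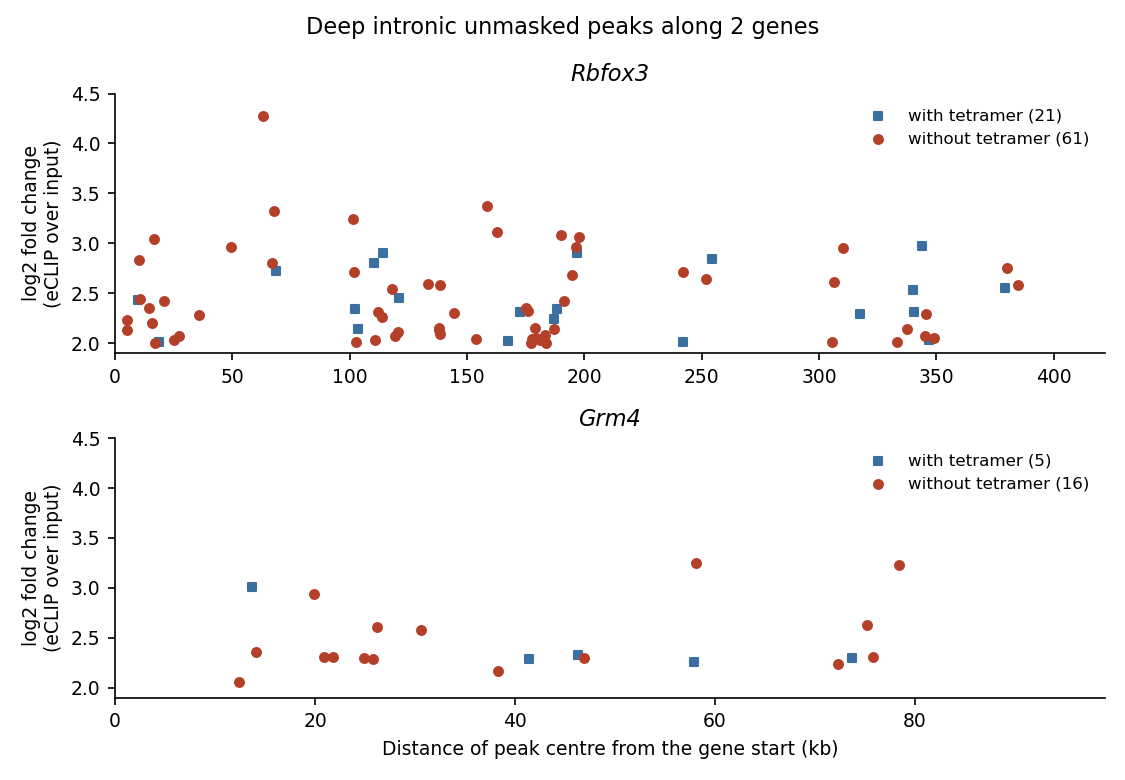
Log2 fold change of eCLIP over input (y axis) against distance of the peak centre from the gene start in kb (x axis) for deep intronic unmasked peaks of Rbfox3 (top) and Grm4 (bottom); each point is 1 peak of the merged whole-brain list. Peaks without (red circles) and with (blue squares) the SLM2 tetramer are interspersed, and in Rbfox3 the highest value without the tetramer is 4.27 and with it 2.97.

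The other genes with several such peaks differed in how these were arranged. In Csmd1, 4 of the 5 lay in an intron of 142.2 kb. The centres of 3 of them fell within 884 nt, with log2 fold changes of 2.00, 3.46 and 3.71. The 5 Rora peaks lay in 1 intron of 530.6 kb between 128.8 and 301.2 kb from the gene start, with values of 2.06, 2.07, 2.14, 3.49 and 4.05, and the last of these was 262112 nt from the nearest exon, the farthest of all 207. In Tspan5 the log2 fold changes were 2.07, 2.13, 2.21, 2.47 and 2.71, and none of the 5 had another peak within 500 nt. The 4 Nrg3 peaks, at 2.04, 2.22, 2.57 and 4.16, lay in 1 intron in pairs, at 514.6 and 517.2 kb and at 569.5 and 569.7 kb from the gene start, and they held 0 or 1 GGG.

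The peaks without UWAA overlapped those with it over most of their range of enrichment over input. Their log2 fold change had a median of 2.45 (quartiles 2.18 and 2.89, range 2.00 to 4.43) against 2.56 (2.27 and 2.94, range 2.00 to 6.04). Below 2.5 lay 111 of the 207 (53.6%) against 562 of 1252 (44.9%), and at 3 or above 41 (19.8%) against 282 (22.5%). In the 52 genes that held both kinds, the median of the peaks without UWAA was higher in 22 and lower in 30, by a median of 0.07 on the log2 scale (exact two-sided sign test, p = 0.332, adjusted p = 0.531 over 8 comparisons). With 1 peak per gene, the highest of each kind, the peaks without UWAA were lower by a median of 0.43 (14 genes higher, 38 lower, adjusted p = 0.00956, exact sign test). That setting takes the highest of more peaks for the kind with UWAA, since most genes hold more of them. The difference in log2 fold change thus depended on how a gene's peaks were summarised.

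Sorted by the number of UWAA starts, the median log2 fold change was 2.45 at 0, 2.45 at 1, 2.47 at 2, 2.48 at 3, 2.59 at 4 to 5 and 2.66 at 6 or more. The peaks without UWAA stood beside those with 1 to 3 starts, and the interquartile ranges of all groups overlapped. The share of peaks with GGG went the other way, from 89.9% at 0 to 61.1% at 1, 55.0% at 2, 45.6% at 3, 33.7% at 4 to 5 and 27.2% at 6 or more. Part of this order follows from the rule, since a window with many UWAA has less room for G.

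**Figure D3:**
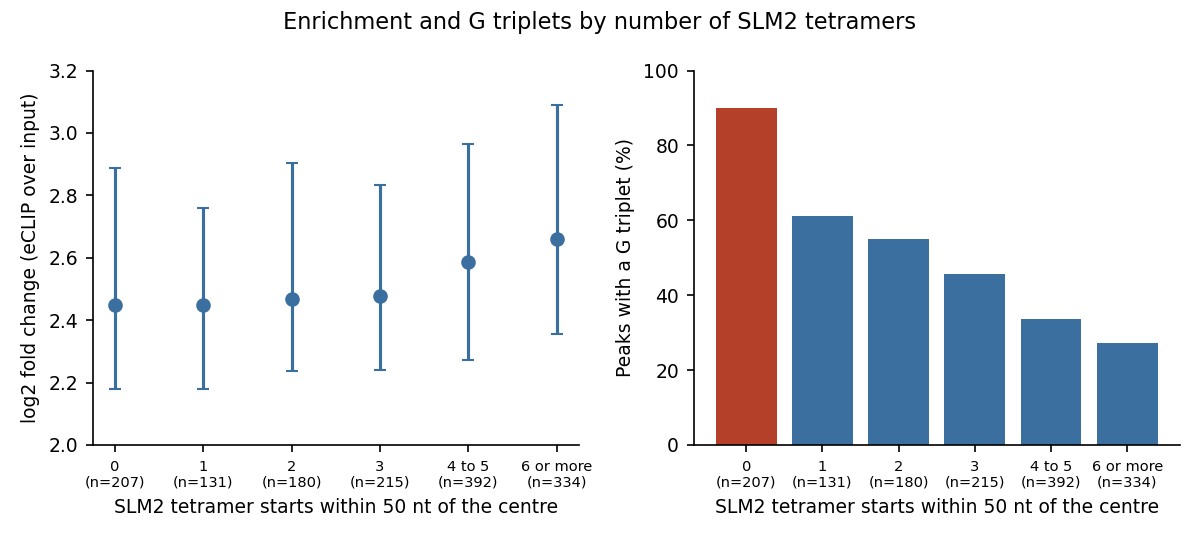
Left, median log2 fold change of eCLIP over input with bars from the lower to the upper quartile over peaks (y axis starts at 2, the authors' threshold); right, percentage of peaks with at least 1 GGG start. The x axis gives the number of SLM2 tetramer starts within 50 nt of the centre and the number of peaks; the median rises from 2.45 at 0 to 2.66 at 6 or more, and the share with GGG falls from 89.9% to 27.2%.

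Of the remaining measures, the −log10 p came nearest to the threshold. It had a median of 4.08 against 4.29 and was lower in 35 of the 52 genes and higher in 17 (exact sign test, p = 0.0175, adjusted p = 0.0701). Without Rbfox3 it was 3.84 against 4.30 (exact sign test, adjusted p = 0.0293). With 1 peak per gene it was 3.87 against 4.06 (16 genes higher, 36 lower, adjusted p = 0.0311, exact sign test). It passed under both, but with 1 peak per gene the leading peak is again taken from more peaks for the kind with UWAA. The −log10 IDR was 2.40 against 2.42 (20 genes higher, 32 lower, adjusted p = 0.337 by the exact sign test). Peak length was 102 against 108 nt (23 higher, 28 lower, 1 tied, adjusted p = 0.696 by the same exact test), with a range of 4 to 292 nt in the peaks without UWAA.

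The peaks without UWAA lay nearer to exons when all peaks were pooled but not within genes. The median distance to the nearest exon was 9494 nt against 20358 nt, but within the 52 shared genes it was higher in 27 and lower in 25 (exact sign test, adjusted p = 0.890). The median length of the gene was 421.8 kb, that of Rbfox3, against 856.7 kb. The exon upstream of the intron was nearer than the one downstream for 147 of 207 (71.0%, exact 95% interval 64.3 to 77.1), beside 845 of 1252 (67.5%, 64.8 to 70.1). Nearest to the limit of the rule, a Ctnnd2 peak lay 1007 nt from an exon (−log10 p 3.04), and an Ahdc1 peak that lay 1000 nt away was left out (−log10 p 2.87). For repeats, the peak just inside was in Phactr1 with 49.5% masked bases (log2 fold change 2.17) and the one just outside in Apc with 51.5% (log2 fold change 4.68).

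The window of the rule is not the peak. In 25 of the 207 peaks (12.1%) UWAA was present inside the peak but more than 50 nt from its centre. At 51 to 150 nt from the centre, outside what the rule used, 139 of 207 (67.1%) held UWAA, against 1215 of 1252 (97.0%). Averaged over genes, the density there was 1.33 starts per 100 positions, beside 1.28 over 400 and up to 600 nt away. It was higher near the peak in 38 genes, lower in 44 and equal in 7 (exact two-sided sign test, p = 0.581). Around the peaks with UWAA the density rose from 1.80 over 400 and up to 600 nt away to 2.96 at 51 to 150 nt, in 203 genes against 47 (exact sign test, p = 2.76e-24). No rise of UWAA next to the peaks without it was detectable, in sequence the rule left free. With windows at the 5′ end of the peak the densities were 1.82 and 1.31. More genes were then higher near the peak (44 against 37), without passing the test (exact sign test, p = 0.505).

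Both kinds of peak differed in composition, above all in G. The median window without UWAA held 34.7% G, 19.8% C, 20.8% A and 24.8% U, and its flanks held 23.8% G, 21.8% C, 24.8% A and 25.7% U. The windows with UWAA held 13.9% G and 36.6% A. Fewer A and U follow from the rule, while the median share of G stood above that of the flanks and that of C did not. GGG started within 186 of the 207 windows (89.9%, exact 95% interval 84.9 to 93.6) and in 286 of 414 flank windows (69.1%), and 99 windows (47.8%) had at least 5 starts.

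Of 13 motifs counted on the transcribed strand, 7 passed the test against the mean of the flanks 500 nt away, with the 89 genes as pairs. Against the upstream flank alone 4 passed and against the downstream flank alone 5. The 3 that rose, all runs of G, passed in each of these. GGG rose from 1.75 starts per 100 positions in the flanks to 5.01 at the peaks, higher in 70 genes and lower in 14 (exact two-sided sign test, adjusted p = 5.29e-09). A stretch of 4 runs of GG spaced by 1 to 7 nt, the arrangement from which G-quadruplexes can form, rose from 0.676 to 3.71 (54 genes higher, 9 lower, adjusted p = 3.97e-08 by the exact sign test). GGWGG (GGAGG or GGUGG) rose from 0.342 to 1.25 (48 higher, 22 lower, adjusted p = 0.00662 by the exact sign test). These counts overlap, since a window with runs of G counts for all of them.

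Of the other 4, only UUUUU fell against each flank alone as well. It stood at 0.0330 at the peaks and 0.369 in the flanks (adjusted p = 2.01e-05, exact sign test), with adjusted p of 0.0144 against the upstream and 0.00101 against the downstream flank by the same exact test. The peaks with UWAA showed a fall too, at 0.197 against 0.452 (35 genes higher, 130 lower, adjusted p = 6.13e-13, exact sign test). Within the 52 genes with both kinds, the difference from the flanks did not separate them (25 higher, 19 lower, adjusted p = 0.733, exact sign test). For motifs missing from most windows, the mean of 2 flanks makes a lower value at the peak likelier, so that the remaining 3 are given as values. UCUU, an element of pyrimidine tracts read by PTB proteins, had 0.372 at the peaks and 0.728 in the flanks, and passed against neither flank alone (adjusted p = 0.0752 and 0.149, exact sign test). YCAY (with Y for C or U), the element of NOVA proteins, had 1.38 and 1.64, and passed against the downstream flank (adjusted p = 0.00662, exact sign test) but not the upstream one (adjusted p = 0.347). GAAGAA, a purine-rich element of splicing enhancers, had 0.0386 and 0.0872 and passed against neither (adjusted p = 0.271 and 0.171, exact sign test). UGCAUG and GCAUG, the elements of the RBFOX proteins, had 0.0321 against 0.0124 and 0.110 against 0.0911, and neither passed the test (adjusted p = 1 and 0.705 by the exact sign test). The repeat UGUGUG, bound by CELF proteins, the repeat CACACA, bound by HNRNPL, GURAGU (R for A or G), which resembles a 5′ splice site, and ACUAAY, which resembles a branch point, did not pass it either, with adjusted p from 0.368 to 0.936.

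Flanks that also lacked UWAA gave the same order for G. In the 63 genes with such flanks, GGG stood at 5.54 at the peaks and 2.23 in the flanks, higher in 49 genes and lower in 9 (exact sign test, adjusted p = 5.82e-07), and the 4 runs of GG at 4.13 and 0.684 (44 higher, 5 lower, adjusted p = 9.88e-08, exact sign test). GGWGG also passed the test there (35 higher, 11 lower, adjusted p = 0.00232, exact sign test). Without Rbfox3, GGG stood at 5.01 against 1.74 in 88 genes.

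**Figure D4:**
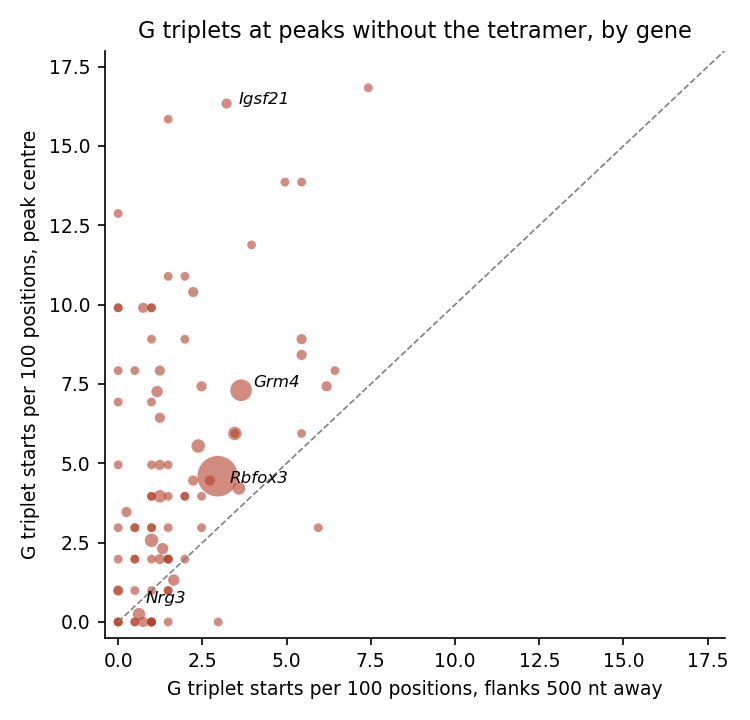
GGG starts per 100 positions within 50 nt of the peak centre (y axis) against the mean of the flanks 500 nt away (x axis), for peaks without the SLM2 tetramer; each point is the mean of 1 of 89 genes, its area grows with the number of peaks, and the dashed line marks equal density. Of the genes, 70 lie above the line and 14 below, with Rbfox3 at 4.59 and 2.95 and Grm4 at 7.30 and 3.65.

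The density of GGG was highest just upstream of the peak centre. In bins of 20 nt it averaged 6.91 starts per 100 positions in the bin centred 40 nt upstream, 5.15 at the centre and 2.35 in the bin centred 60 nt downstream, and it was 1.62 at 500 nt upstream. The excess was large in Igsf21, a synaptic adhesion gene (16.3 against 3.22 in the flanks), Sez6l (15.8 against 1.49) and Gnaq (9.90 against 0). It was small in Ppp2r2c (4.21 against 3.59) and absent in Nrg3 (0.248 against 0.619). CCC, the same triplet on the other strand, was in 134 of 207 windows (64.7%) and in 266 of 414 flank windows (64.3%).

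**Figure D5:**
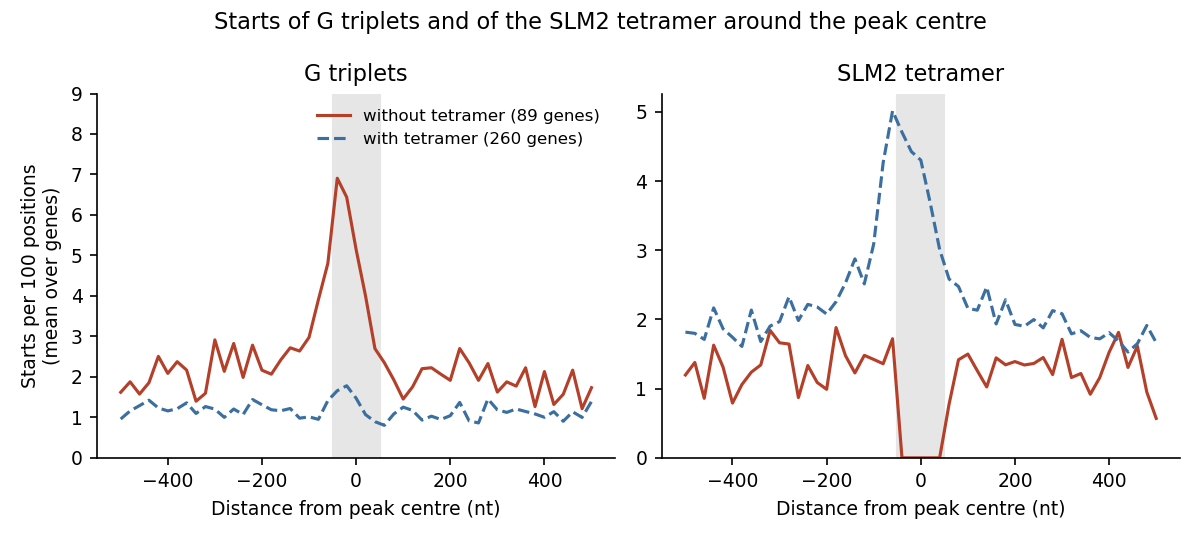
Starts per 100 positions, in bins of 20 nt, of GGG (left) and of the SLM2 tetramer (right) by distance from the peak centre in nt, as the mean over genes of peaks without (red, 89 genes) and with (blue, dashed, 260 genes) the tetramer; the grey band is the window of the rule. GGG reaches 6.91 upstream of the centre of peaks without the tetramer and 1.78 in peaks with it, and the gap of the red line on the right is what the rule requires.

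In the peaks with UWAA, GGG stood at 1.37 against 1.13 in their flanks, higher in 107 genes and lower in 125 (exact sign test, adjusted p = 0.312). Against the upstream flank alone it was higher in 100 and lower in 104, and against the downstream flank alone in 96 and 102. The excess itself was compared in the 52 genes with both kinds: that of the peaks without UWAA was higher in 33 and lower in 17, by a mean of 1.72 starts per 100 positions (exact sign test, p = 0.0328, adjusted p = 0.142 over 13 motifs). The difference in excess within the same genes therefore did not pass the adjustment. GGG was present in 500 of 1252 windows with UWAA (39.9%), and 5 or more starts in 74 (5.91%).

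Among all 6-mers, those found at the peaks of the most genes in excess of their flanks were GGUGGG (31 genes, against a mean of 6 in the flanks), GGGUGG (29 against 7), GGGGUG (30 against 8.5) and GUGUGG (24 against 6.5). Of the leading 20, 10 held GGG, and most of the others joined G to U, such as GGUGAG (18 against 3.5). Non-overlapping windows of the same gene seldom repeated one another: of 2023 pairs in the 27 genes with several such peaks, 2 shared 12 identical bases in a row, 1 in Rbfox3 and 1 in Grm4.

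The 21 peaks without GGG covered much the same range of enrichment as the others. Their log2 fold change had a median of 2.57 and reached 4.16, beside 2.43 and 4.43 in the 186 with GGG. They were in 18 genes, among them Nrg3, Pcdh9, Nlgn1, Cntnap2, Grm5 and Syt1, in which most deep intronic unmasked peaks carried UWAA. Others of the 18 went the other way. Rbfox3 had 61 of 82 without it, and Dapk1, Camk2d, Brinp3 and Gpi1 had a single deep intronic unmasked peak each, which lacked it. The windows of highest log2 fold change without GGG or adaptor match were in Nrg3, Mmp16, which encodes a matrix metalloproteinase, and Camk2d, a subunit of the calcium and calmodulin-dependent kinase II. They are shown with no part in capitals.

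Nrg3, chr14:38903515-38903615, minus strand: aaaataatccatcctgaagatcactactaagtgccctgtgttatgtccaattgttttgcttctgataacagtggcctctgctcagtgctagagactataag
Mmp16, chr4:18114386-18114486, plus strand: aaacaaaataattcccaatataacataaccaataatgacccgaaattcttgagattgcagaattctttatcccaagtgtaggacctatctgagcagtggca
Camk2d, chr3:126623440-126623540, plus strand: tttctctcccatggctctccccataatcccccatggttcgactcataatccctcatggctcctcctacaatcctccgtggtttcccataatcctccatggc

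Overlap with the hippocampal peaks, which came from other libraries, was rare for both kinds. A hippocampal peak covered at least 1 nt of 3 of the 207 peaks (1.45%, exact 95% interval 0.300 to 4.18) and of 29 of the 1252 with UWAA (2.32%, 1.56 to 3.31; Fisher's exact test over peaks, adjusted p = 0.696). The 3 were in Rbfox3 (log2 fold change 2.27 in whole brain) and in the Csmd1 group (3.71 and 2.00). The Rbfox3 peak lacked GGG and had the highest −log10 p of the Rbfox3 peaks without UWAA, 19.5, and the first of the Csmd1 peaks had 19.0. The hippocampal peaks over them had a −log10 p of 1.43, 1.69 and 1.15, all below 2. With hippocampal peaks below 2 left out, none of the 207 overlapped one, against 0.958% of those with UWAA (Fisher's exact test, adjusted p = 0.377). A small share of overlap among peaks without UWAA remains possible at this count. The windows of the 3 whole-brain peaks follow, with GGG in capitals.

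Rbfox3, chr11:118797830-118797930, minus strand: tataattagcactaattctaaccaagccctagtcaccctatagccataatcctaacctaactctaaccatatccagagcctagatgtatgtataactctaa
Csmd1, chr8:17432735-17432835, minus strand: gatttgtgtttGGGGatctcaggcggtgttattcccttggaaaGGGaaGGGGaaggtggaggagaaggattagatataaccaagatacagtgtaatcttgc
Csmd1, chr8:17432344-17432444, minus strand: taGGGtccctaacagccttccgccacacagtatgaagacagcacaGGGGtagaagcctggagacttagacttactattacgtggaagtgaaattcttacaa

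The same rule applied to the 178 hippocampal peaks left 51 deep intronic unmasked peaks, of which 11 lacked UWAA (21.6%, exact 95% interval 11.3 to 35.3). They lay in 10 genes, 6 of which also held such a peak in whole brain, and their log2 fold change ran from 2.06 to 2.76. GGG was present in 9 of the 11, at 5.30 starts per 100 positions against 1.19 in the flanks, higher in 8 genes and lower in 2 (exact sign test, p = 0.109, adjusted p = 0.542). The direction was as in whole brain, but it did not pass the test, and 3 of the 11 overlapped one of the 207 whole-brain peaks. In 10 of the 11 the −log10 p was below 2, whereas the lowest value among the 207 whole-brain peaks was 2.82. Hippocampal peaks below 2 also lay over whole-brain peaks with UWAA, whose overlap fell from 2.32% to 0.958% without them. The share below 2 over all 178 hippocampal peaks is not given here, so the count does not set the 11 apart.

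Matches to the library adaptors were more frequent in the peaks without UWAA when peaks were counted, but the difference did not pass with 1 peak per gene. At least 10 nt identical to an adaptor or primer of the study or to its reverse complement lay within 20 nt of 17 of the 207 peaks (8.21%, exact 95% interval 4.86 to 12.8) and of 40 of 1252 (3.19%, 2.29 to 4.33; Fisher's exact test over peaks, adjusted p = 0.0127). Regions of the same length 500 nt away had such a match in 5.31% and 3.83%. At 12 nt the match was found in 2 and 8 peaks (0.966% and 0.639%, adjusted p = 0.733, Fisher's exact test), and without Rbfox3 and Grm4 the adjusted p at 10 nt was 0.0565. With 1 peak per gene the shares at 10 nt were 8.99% and 3.85% (adjusted p = 0.181, Fisher's exact test). Fisher's test over all peaks treats peaks of 1 gene as independent, which they are not.

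The 17 included both leading peaks by log2 fold change, in Elfn2 (4.43), a postsynaptic adhesion protein, and Cwc22 (4.31), a splicing factor, as well as Dapk1, a kinase (3.95), and Trpm3, a cation channel (3.58), which had the highest −log10 p of all 207, at 25.3. The peaks of Cwc22 and Dapk1 were 27 and 30 nt long, against the median of 102, and one in Il31ra was 4 nt long. In the windows below, the bases identical to an adaptor are in capitals.

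Elfn2, chr15:78709394-78709494, minus strand: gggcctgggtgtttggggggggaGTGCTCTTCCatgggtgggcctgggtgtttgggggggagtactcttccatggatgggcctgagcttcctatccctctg
Cwc22, chr2:77886236-77886336, minus strand: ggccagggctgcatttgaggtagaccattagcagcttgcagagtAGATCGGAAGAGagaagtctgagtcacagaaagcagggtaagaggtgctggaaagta

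The part of such matches in these peaks was not tested. With every matched peak left out, GGG still exceeded the flanks by 3.25 starts per 100 positions, as it did with them (3.26), and the exact sign test gave an adjusted p of 3.93e-08. The log2 fold change of the 190 peaks without a match had the same median, 2.45.

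Clustering with other peaks within 500 nt did not pass the test over all genes, but closer clustering did. Another whole-brain peak on the same strand lay within 500 nt of 60 of the 207 (29.0%, exact 95% interval 22.9 to 35.7) and of 422 of 1252 (33.7%, 31.1 to 36.4; Fisher's exact test over peaks, adjusted p = 0.404). Within 200 nt the shares were 16.4% and 26.1% (adjusted p = 0.00922, Fisher's exact test). Without Rbfox3 the shares within 500 nt were 21.9% and 33.6% (adjusted p = 0.0149, Fisher's exact test), and without Rbfox3 and Grm4 they were 18.5% and 33.5% (adjusted p = 0.00278, Fisher's exact test). With 1 peak per gene the shares within 500 nt were 13.5% and 17.3% (adjusted p = 0.507, Fisher's exact test). With at most 20% masked bases they were 31.8% and 32.5% and did not pass either. Genes differ widely in their number of peaks, and whether the lower shares follow the gene or the kind of peak was not tested. Fisher's test counts peaks as if they were independent, which peaks of 1 gene are not. Repeats were absent from 116 of 207 windows (56.0%) against 428 of 1252 (34.2%), and a gene on the opposite strand was annotated at 15 (7.25%) against 25 (2.00%).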

How the data were processed

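SLM2 eCLIP peaks of whole brain and hippocampus were taken from 1 merged list per tissue. The submitters' processing notes name cutadapt 3.4, STAR 2.7.9 with mm10 and UMI-tools 1.1.1, and peak calls followed CLIPper with replicates combined by IDR. Per peak, the authors deposited the log2 fold change of eCLIP over input, its −log10 p and, as a score of reproducibility, the −log10 IDR. The lists have no header, and column meanings were taken from the column names of the study's supplementary sheet and from the values. Read counts and depth were not used here.

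Peaks were placed on GENCODE vM21 and on the GRCm38 sequence with repeats in lower case. A motif counts where it starts within 50 nt of the centre. The regions, gene lists and motifs were chosen with earlier results of these data known. Genes named are the 10 with the most regions, those of the 10 highest log2 fold changes, the 5 highest and 5 lowest shares, those overlapping hippocampal peaks, up to 3 per gene list, and Khdrbs1, Khdrbs2 and Khdrbs3, and others where a sequence is shown or a small count needed it, chosen after values were seen. Exact binomial sign tests over genes, Fisher's exact tests over peaks and Clopper-Pearson 95% intervals, which cover counting error only, were used, with Benjamini-Hochberg adjustment at 0.05. A centre was compared with the mean of both flanks and, as an alternative chosen after seeing the data, with each flank alone. The sign test was tested on simulated data. Python 3.11.15, numpy 2.4.6, pandas 2.3.3, scipy 1.17.1, statsmodels 0.14.6, pysam 0.24.0, samtools 1.23.1 and matplotlib 3.10.9 were used. Alternatives covered the window, masking, distance, enrichment, flanks, matches and single genes.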

Additional observations from a re-analysis of the deposited data

How the results depend on the processing

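No paired analysis was possible because the replicates of a tissue were merged into 1 list by the authors, whose columns carry no replicate number, and for the same reason no replicate could be left out. The excess of GGG and of 4 runs of GG over the flanks and the lower share of windows without UWAA at peaks kept direction and call under every alternative run. The excess of GGWGG was lost with at most 20% masked bases (adjusted p = 0.587, exact sign test). Of the motifs lower at the peaks, UUUUU passed under every alternative. YCAY lost its call with the 5′-end window (adjusted p = 0.123, exact sign test), at most 20% masked bases (0.0718), over 2000 nt from exons (0.0824), from a log2 fold change of 3 (0.0589), with 1 peak per gene (0.119) and against the upstream flank alone (0.347). GAAGAA lost it with the 5′-end window (0.612), at most 20% masked bases (0.143), a log2 fold change of 3 (0.232), flanks 1000 nt away (0.207), flanks without UWAA (0.178) and either flank alone (0.271 and 0.171), and UCUU from a log2 fold change of 3 (0.202), with flanks without UWAA (0.143) and with either flank alone (0.0752 and 0.149), all by the exact sign test. The single flanks were chosen after seeing the data, and 4 motifs passed with the upstream one. With only log2 fold changes from 3 up, 41 regions were left and 4 motifs passed, and without Rbfox3 and Grm4, a setting chosen after seeing the data, 130 regions were left.

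The difference in adaptor matches lost its call with at most 20% masked bases (4.59 percentage points), from a log2 fold change of 3 (5.86), with 1 peak per gene (5.14), with a match of 12 nt (0.327) and without Rbfox3 and Grm4 (4.51), and was 0 by construction without matched peaks. The −log10 p difference passed without Rbfox3 (-0.50), with 1 peak per gene (-1.17) and without Rbfox3 and Grm4 (-0.51). The log2 fold change difference passed with 1 peak per gene (-0.43). In that setting both measures are compared at the peak of highest log2 fold change of each kind, and most genes hold more peaks with UWAA. Fewer neighbours passed without Rbfox3 (-11.7 percentage points), within 200 nt (-9.69) and without Rbfox3 and Grm4 (-15.1). The difference was -3.82 with 1 peak per gene and -0.75 with at most 20% masked bases, and passed in neither. The difference in GGG excess, also recomputed under these settings after seeing the data, missed an unadjusted 0.05 with at most 20% masked bases (1.39), from a log2 fold change of 3 (0.888) and without Rbfox3 and Grm4 (1.76). Differences that had not passed changed sign for the distance to exons with windows at the 5′ end (-535.5 nt) and with at most 20% masked bases (-462.5 nt), for peak length with at most 20% masked bases (0.250 nt) and from a log2 fold change of 3 (1 nt), and at that threshold for log2 fold change (0.29), −log10 p (0.43) and −log10 IDR (0.105). The causes were not tested. The lists hold no read depth, so a window without a peak may lie below what the libraries could show.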
